A study of Danio rerio with 24 samples.

Results

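The genes described here encode maternal factors of egg chromatin, RNA storage and genome activation. They are the oocyte linker histone h1m, the histone chaperones npm2a and npm2b, and the RNA-binding proteins zar1, ybx1 and cpeb1b. The others are the transcription factors pou5f3 and nanog and the mRNA decay adaptor btg4. Array targets were taken as members when their RefSeq accession belonged to 1 of these 9 genes. All 9 genes had at least 1 target, which gave 10 targets (ybx1 had 2) of the 89208 on the array. The 10 targets were read by 42 of the 128291 probes. Zebrafish of the wild-type AB strain were kept as embryos in 0, 0.3, 3 or 30 ppb of the herbicide atrazine from 1 to 72 hours post fertilization (hpf), then raised in clean system water, with the same strain, housing and age in all 4 groups. Total RNA from the ovaries of adult females was hybridized to 1-colour arrays, 6 for each treatment group and 24 in all, at 5 to 6 months post fertilization (mpf) by the labels. In the study's methods, replicates were groups of fish started on different days. An ovary holds oocytes and somatic cells together, so fewer cells of a type and less RNA per cell cannot be told apart.

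A fish oocyte makes nearly all the RNA and chromatin protein that the embryo uses before its own genome is read. In oocytes a special linker histone and nucleoplasmin chaperones pack and exchange histones, and RNA-binding proteins hold mRNAs silent until maturation or fertilization releases them. In the zebrafish embryo Pou5f3 and Nanog, made from maternal mRNA, help to switch on the zygotic genome, while deadenylation clears the stored transcripts.

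Levels are log2 signals relative to the 75th percentile of each array, and values of different targets are not set against each other because each probe has its own brightness. Results rest on replicates 2 to 6 (20 arrays, on 5 slides), since the replicate 1 slide had a misplaced grid and its 4 arrays correlated at no more than 0.015 with the other arrays. The 4 treatment groups sat at fixed positions on each slide, so position and treatment cannot be told apart. Among the other arrays, 30 ppb replicate 2 and 3 ppb replicate 6 were also marked for a poor grid, and only 39.3% of probes were well above background on the latter. Against the median 0 ppb array, 17 of the 20 arrays correlated at 0.837 to 0.979, and the 0.3 ppb arrays of replicates 3, 5 and 6 at 0.688, 0.680 and 0.648. On those 3 arrays the mean level of 15 oocyte markers relative to the median 0 ppb array was between -8.46 and -7.62 on the log2 scale, and that of 20 brain markers between 7.05 and 7.41. On the 17 other arrays the same means ran from -0.18 to 0.47 for the oocyte markers and from -0.34 to 1.28 for the brain markers. The 3 arrays carry an ovary label that their markers do not bear out, so each 0.3 ppb result below is given by array.

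At 0 ppb all 10 targets were well above background on every array, and their levels were tight. The SD over the 5 control arrays was 0.04 for npm2a, 0.09 to 0.12 for 8 of the other targets and 0.20 for btg4. None of the 65 spots of these probes was marked as saturated on any array. Over the 15 arrays of the 0, 3 and 30 ppb groups, the distance from the lowest to the highest level of a target was 0.65 (btg4) to 1.04 (ybx1), with a median of 0.76. Over all 62715 targets with a value on those arrays the median distance was 2.27 and the 10th percentile 0.80. These include targets with probes well above background on as few as 5 of the 15 arrays. They were not matched to the members for level, so the smaller distances cannot be read as particular to the members. The plot of levels by array shows the 10 targets in all 4 groups.

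**Figure D1:**
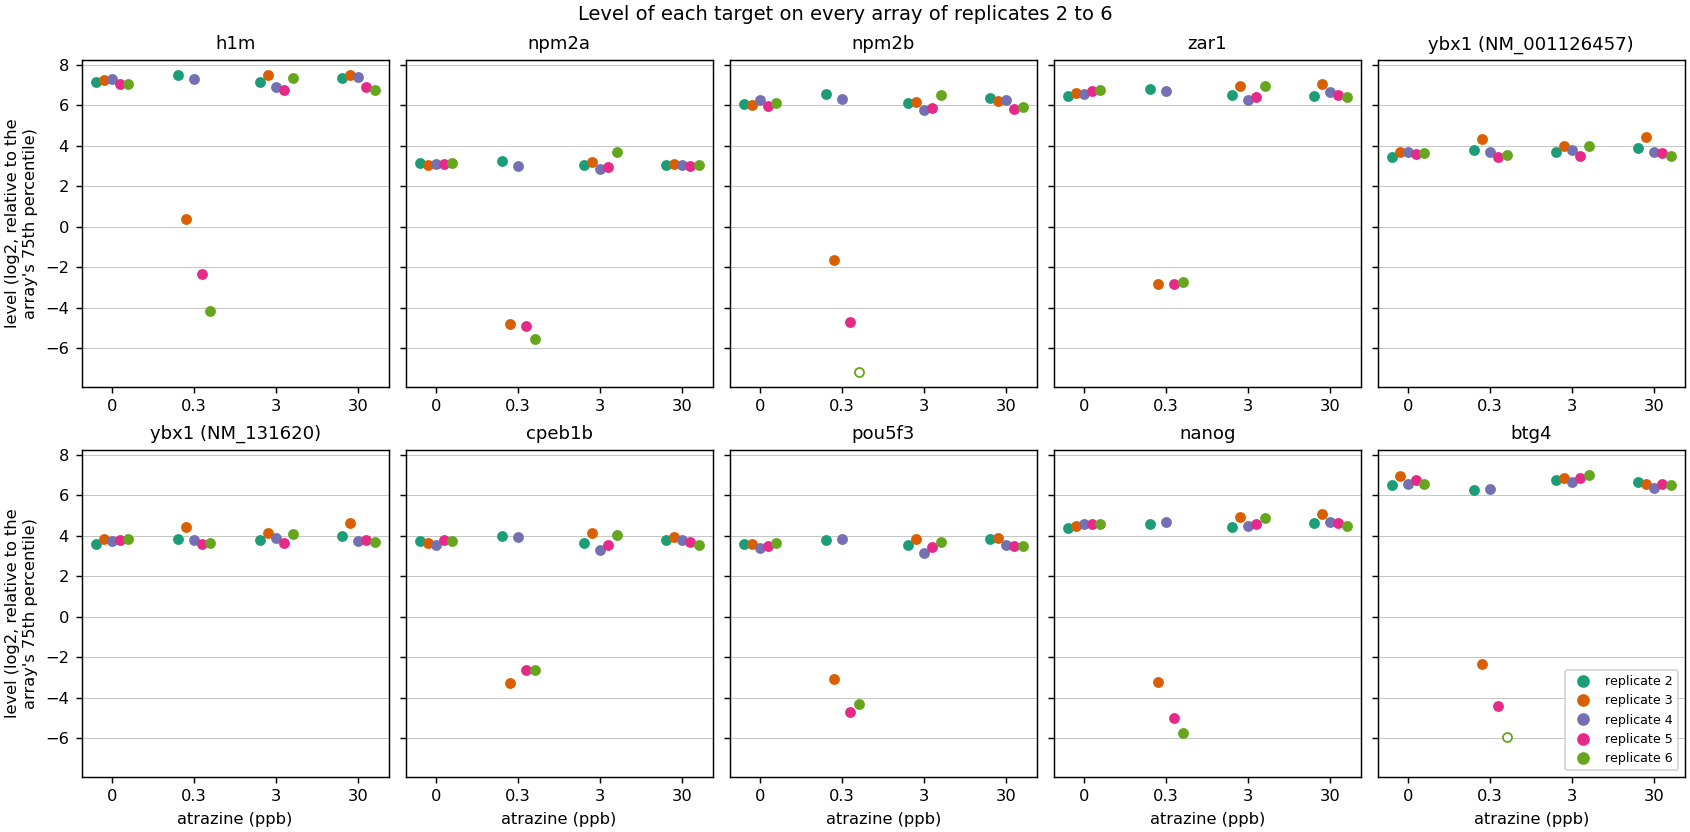
Log2 level relative to the array's 75th percentile (y axis) of the 10 targets in replicates 2 to 6 of the 4 treatment groups (x axis, atrazine in ppb), 1 point per array. Open circles are arrays on which no probe of the target was well above background (npm2b and btg4 on 0.3 ppb replicate 6). Except for ybx1, each panel shows 3 of the 5 arrays at 0.3 ppb far below the rest, while the 15 arrays at 0, 3 and 30 ppb span 0.65 to 0.85 for a target.

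Of the chromatin proteins, h1m (RefSeq NM_183071, 2 probes), the linker histone of oocytes and early embryos, read 7.16, 7.24, 7.28, 7.04 and 7.05 at 0 ppb in replicates 2 to 6. At 0.3 ppb it read 7.47, 0.37, 7.27, -2.33 and -4.16 in the same order. Replicate 2 of 0.3 ppb thus lay above the control range and replicate 4 within it, while replicates 3, 5 and 6 were far below it. The h1m levels were 7.17, 7.49, 6.92, 6.76 and 7.36 at 3 ppb, and 7.34, 7.47, 7.41, 6.92 and 6.74 at 30 ppb. Both groups overlapped the controls on either side, and replicate 5 was below its control at each dose.

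npm2a (NM_001199913, 2 probes), a nucleoplasmin-type histone chaperone, read 3.15, 3.03, 3.11, 3.11 and 3.12 at 0 ppb. On the 0.3 ppb arrays its levels were 3.23, -4.78, 2.99, -4.90 and -5.55. At 3 ppb they were 3.03, 3.21, 2.85, 2.93 and 3.67. Replicate 6, an array with a poor grid, stood apart at 3 ppb, and the other 4 arrays scattered on both sides of the controls. At 30 ppb npm2a read 3.05, 3.11, 3.06, 3.01 and 3.06, as tight a group as the controls, and 4 of its 5 pairs were below the control, the furthest at -0.11.

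npm2b (NM_001123007, 1 probe) belongs to the same family, and its maternal protein is needed in zebrafish for early development of the embryo. Its levels at 0 ppb were 6.06, 6.02, 6.25, 5.94 and 6.13. At 0.3 ppb they were 6.53, -1.66, 6.28, -4.68 and -7.16, the last of which was not well above background. The arrays of replicates 2 and 4 were above all 5 controls, and the other 3 arrays were below them all. Levels of npm2b were 6.09, 6.16, 5.75, 5.88 and 6.48 at 3 ppb, and 6.36, 6.22, 6.27, 5.80 and 5.90 at 30 ppb. Each of these groups reached both above and below the control range.

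Of the RNA-binding proteins, zar1 (NM_194381, 2 probes), which binds and holds stored mRNAs in oocytes, read 6.47, 6.60, 6.56, 6.69 and 6.75 at 0 ppb. It read 6.79, -2.84, 6.72, -2.84 and -2.71 at 0.3 ppb. The 3 low zar1 arrays lay close together, whereas those of h1m were spread over several log2 units. At 3 ppb zar1 read 6.52, 6.93, 6.27, 6.41 and 6.94, and at 30 ppb 6.48, 7.03, 6.67, 6.50 and 6.38. Replicate 3 was the highest at 30 ppb, and both groups overlapped the controls.

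cpeb1b (NM_131427, 3 probes), which binds the cytoplasmic polyadenylation element of stored mRNAs, read 3.72, 3.66, 3.56, 3.81 and 3.75 at 0 ppb. At 0.3 ppb the levels were 3.96, -3.29, 3.92, -2.63 and -2.61. Replicates 2 and 4 were again the 2 arrays above the control range. At 3 ppb cpeb1b read 3.65, 4.12, 3.27, 3.55 and 4.03, and at 30 ppb 3.81, 3.95, 3.81, 3.67 and 3.56. The 3 ppb arrays spread on both sides of the controls, with replicates 3 and 6 high and replicate 4 low.

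ybx1, a cold-shock domain protein that packs mRNA and restrains its translation, had 2 targets whose levels ran together. The first (NM_001126457, 11 probes) read 3.45, 3.71, 3.67, 3.61 and 3.65 at 0 ppb, and 3.79, 4.34, 3.67, 3.43 and 3.55 at 0.3 ppb. In the same order, the second (NM_131620, 13 probes) read 3.57, 3.82, 3.73, 3.77 and 3.82 at 0 ppb, and 3.85, 4.44, 3.79, 3.58 and 3.64 at 0.3 ppb. For neither target did the arrays of replicates 3, 5 and 6 fall as the other members did: replicate 3 was the highest of the 5 and replicates 5 and 6 were the lowest. At 3 ppb the first target read 3.69, 4.00, 3.79, 3.51 and 3.99, and at 30 ppb 3.90, 4.45, 3.68, 3.62 and 3.48. The second read 3.80, 4.12, 3.90, 3.66 and 4.11 at 3 ppb, and 3.99, 4.61, 3.75, 3.80 and 3.68 at 30 ppb. Replicate 3 at 30 ppb was the highest ybx1 array of all 4 groups for both targets.

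Of the genome activators, pou5f3 (NM_131112, 2 probes), a POU-family transcription factor, read 3.60, 3.57, 3.37, 3.47 and 3.66 at 0 ppb. At 0.3 ppb it read 3.77, -3.05, 3.82, -4.71 and -4.32, with replicates 2 and 4 above every control. Its levels were 3.54, 3.83, 3.14, 3.47 and 3.69 at 3 ppb, and 3.84, 3.90, 3.52, 3.50 and 3.49 at 30 ppb. At 30 ppb replicates 2 and 3 exceeded every control, and the other 3 lay within the control range.

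nanog (NM_001098392, 5 probes), a homeodomain transcription factor, read 4.37, 4.47, 4.57, 4.57 and 4.56 at 0 ppb. At 0.3 ppb it read 4.60, -3.22, 4.69, -5.01 and -5.71. On none of the 3 low arrays were all 5 of its probes well above background, but each array had at least 2 that were. At 3 ppb nanog read 4.41, 4.93, 4.47, 4.57 and 4.89, and at 30 ppb 4.60, 5.07, 4.68, 4.65 and 4.47. In each of these groups replicate 3 was the highest, and 4 of the 5 pairs were above their control at 30 ppb.

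btg4 (NM_198121, 1 probe), which in mouse joins mRNAs to the CCR4-NOT deadenylase when the oocyte matures, read 6.48, 6.96, 6.53, 6.73 and 6.55 at 0 ppb. At 0.3 ppb it read 6.25, -2.35, 6.28, -4.39 and -5.92, and the last of these was not well above background. Unlike the other members, btg4 was below every control also in replicates 2 and 4, so that its 0 and 0.3 ppb groups did not overlap. Of 61486 targets, 10.4% had the arrays of replicates 2 and 4 both below every control, and 0.701% all 5 arrays. The btg4 levels were 6.74, 6.86, 6.66, 6.84 and 7.01 at 3 ppb, and 6.65, 6.54, 6.36, 6.57 and 6.51 at 30 ppb. All 5 arrays at 3 ppb were above all 5 at 30 ppb (6.66 against 6.65 at the nearest), an order that 0.0588% of 62959 targets showed, while each group overlapped the controls.

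The comparison of 0.3 with 0 ppb asks whether the lowest dose changed these genes in the adult ovary. The arrays of replicates 3, 5 and 6 did not carry ovary-type markers. Neither the losses on them nor a fit of the labelled groups can therefore answer this. In the pairs of replicates 3, 5 and 6, h1m was 117- to 2369-fold below its control and zar1 696- to 740-fold, with all their probes well above background. Where the level of a target lay below the lowest signal of probes well above background on that array, the fold was taken against that signal and is given as "at least". npm2a was 258-fold lower in replicate 5 and at least 214- and 337-fold lower in replicates 3 and 6. npm2b was lower by 204-fold to at least 2708-fold and btg4 by 634-fold to at least 3619-fold, with the bound in replicate 6. cpeb1b was 81.9- to 123-fold lower and pou5f3 98.0- to 291-fold, and nanog was 206- and 766-fold lower in replicates 3 and 5 and at least 909-fold lower in replicate 6. The means of cpeb1b in replicate 3, of pou5f3 in replicates 3 and 5 and of nanog on all 3 arrays included probes not well above background, so these folds are less certain. In all, 8 of the 10 targets were lower by at least 5 log2 units in each of the 3 pairs, beside 1.84% of 61964 targets. The cut of 5 log2 units was not a planned one. At the planned 1.5-fold the same 8 were lower in each pair, beside 22.2% of all targets. The median over the members was -7.31, -8.78 and -9.07 in these pairs, while that of all targets was 0.55, 0.32 and 0.38. Of the 15 oocyte markers, 13 were lower by at least 5 log2 units in each of the same pairs, and 19 of 19 measured brain markers were higher by at least 1.5-fold, as were 36.5% of all targets. The part of these markers in the loss of the members was not tested. In the pairs of replicates 2 and 4 the median over the members was 0.26 and 0.05. Mean levels of the oocyte markers on these 2 arrays were 0.17 and 0.24 and of the brain markers -0.34 and -0.10. Replicate 2 stood outside the 0, 3 and 30 ppb arrays in its follicle somatic markers (-0.76, where those arrays ran from -0.33 to 0.95) and its blood markers (2.63, where they ran from -1.17 to 2.07).

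**Figure D2:**
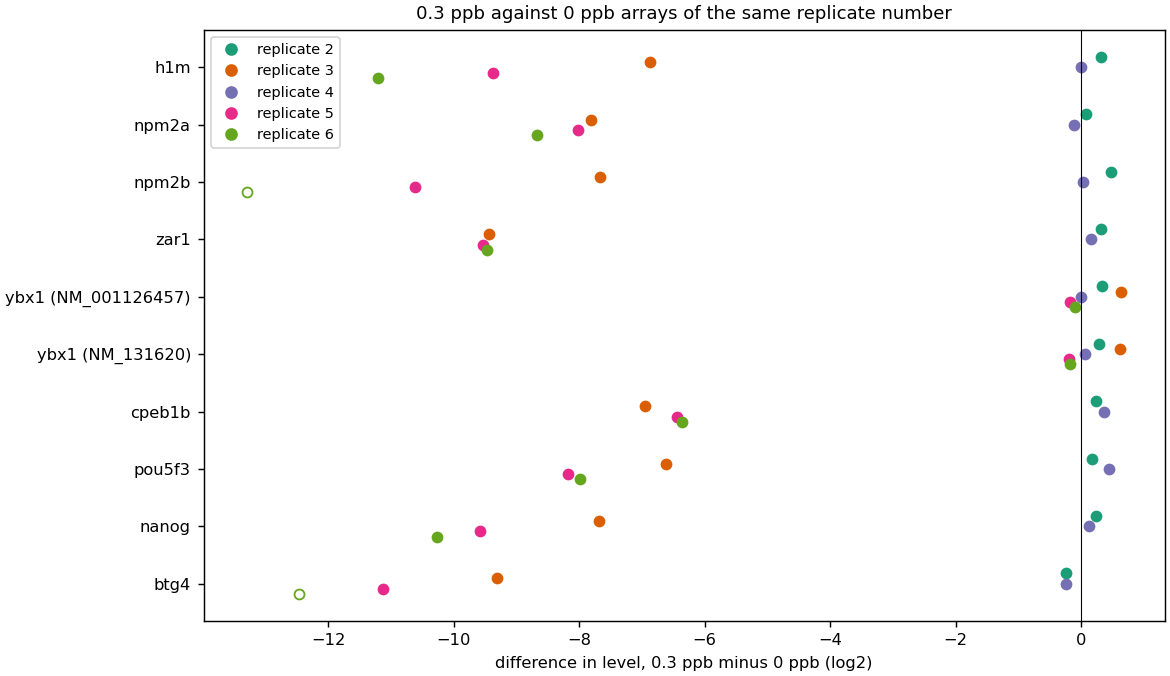
Difference in log2 level between the 0.3 and the 0 ppb array of the same replicate number (x axis) for each of the 10 targets (y axis), 1 point per pair, open where the target was not well above background at 0.3 ppb. Replicates 3, 5 and 6 lie between -6.36 and -13.29 for every target but those of ybx1, and replicates 2 and 4 between -0.25 and 0.47 for all targets.

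In the limma fit over the 10 arrays of the 2 groups, no member met the threshold (adjusted p under 0.05 after Benjamini-Hochberg and a change of at least 1.5-fold in either direction), which 2 of 63569 targets (0.00315%) met. The fitted log2 fold changes of the 8 lost targets were -3.83 (SE 1.48) for cpeb1b to -6.68 (SE 2.32) for btg4, each with an adjusted p of 0.236 in limma. The unadjusted limma p was 0.0158 to 0.0300 for these 8, beside 10.7% of targets that were lower at an unadjusted p under 0.05 and this fold. For the ybx1 targets the fit gave 0.14 (95% confidence interval -0.54 to 0.81) and 0.12 (-0.56 to 0.79). Without the arrays of replicates 3, 5 and 6, the difference of the 7 lost targets other than btg4 turned to 0.01 (npm2a) to 0.33 (npm2b), and that of btg4 was -0.24. Those 3 arrays were set apart by their measured values, so this refit only describes where the loss lay and tests nothing. With them the btg4 value was -6.68, so most of its difference lay on the same arrays.

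The level of each ybx1 target was an average over probes that disagreed on the same 3 arrays, as was seen after the values had been examined. On 0.3 ppb replicate 5, 13 of the 24 probes were below the control (6 of the first target, 7 of the second) and 11 above it (5 and 6). The 13 differed from the control by -1.57 to -1.14 and the 11 by 0.86 to 1.36 on the log2 scale. The classes set by that sign also lay apart on the other arrays of this kind. On replicate 3 the 13 differed by -1.17 to 0.33, with 12 lower and 1 higher, and the 11 by 2.06 to 2.36. On replicate 6 the 13 differed by -1.56 to -0.79 and the 11, of which 10 had a value, by 0.86 to 1.33. Each class held probes of both targets, so the difference between probes did not follow the RefSeq accession. On replicates 2 and 4 of 0.3 ppb, which did not set the classes, the 13 probes differed from the control by 0.11 to 0.33 and 0.02 to 0.38, and the 11 by 0.26 to 0.51 and -0.34 to -0.01. The classes also lay apart on some arrays with ovary-type markers. In 30 ppb replicate 2 the 13 differed by 0.04 to 0.27 and the 11, of which 9 had a value, by 0.60 to 0.98. In 30 ppb replicate 4, by contrast, the 13 differed by 0.09 to 0.33 and the 11 by -0.39 to -0.03. In 3 ppb replicate 3 the order was again that of replicate 4, with 0.26 to 0.58 for the 13, of which 12 had a value, and 0.01 to 0.15 for the 11. A near-zero mean difference of ybx1 at 0.3 ppb therefore joined probes that moved in opposite directions, and which transcripts each class reads was not tested.

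**Figure D3:**
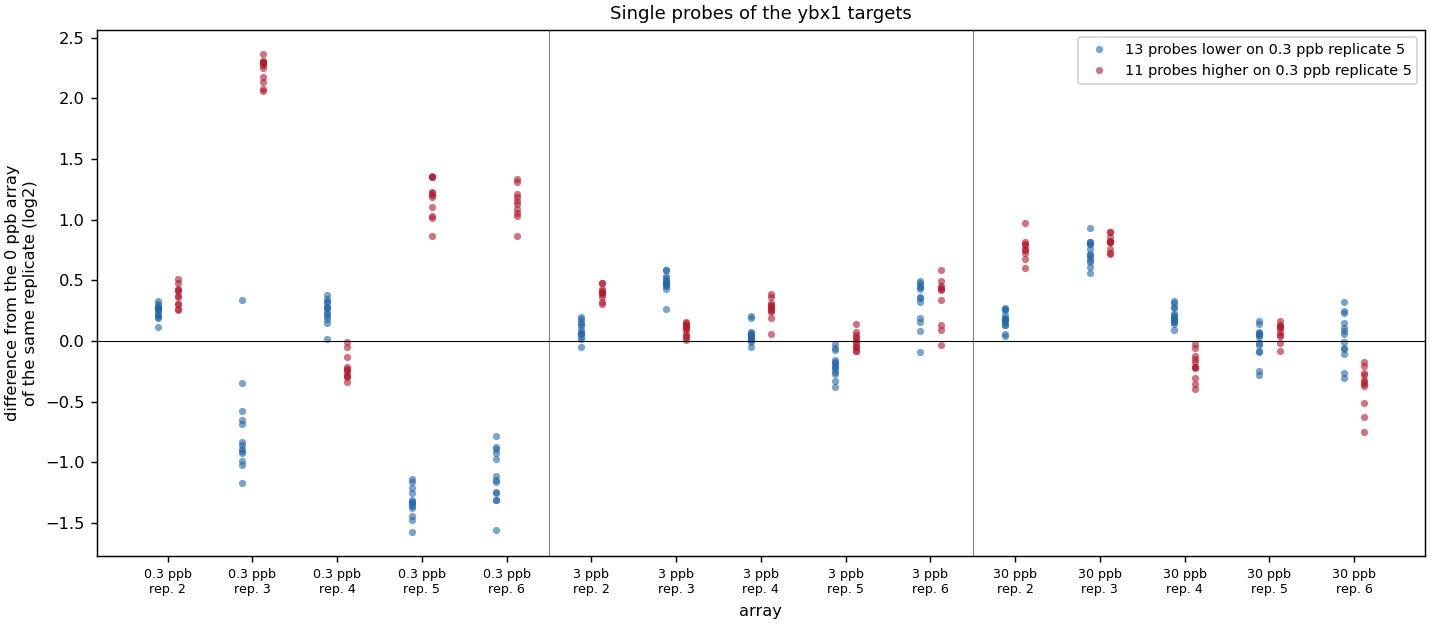
Difference in log2 level from the 0 ppb array of the same replicate number (y axis) for each of the 24 ybx1 probes on the treated arrays of replicates 2 to 6 (x axis), coloured by the sign of the difference on 0.3 ppb replicate 5. The 13 probes that are lower and the 11 that are higher there form separate bands also on 0.3 ppb replicates 3 and 6, and narrower ones on arrays such as 30 ppb replicate 2.

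The comparisons of 3 and 30 ppb with 0 ppb ask the same of the higher doses. No member met the limma threshold at either dose, as no target did (0 of 69978, 0%, in each comparison). At an unadjusted limma p under 0.05 with the same fold there were 1266 targets at 3 ppb (1.81%) and 883 at 30 ppb (1.26%), and none of the members was among them. At 3 ppb the fitted log2 fold change of the members ran from -0.01 (h1m, SE 0.194) to 0.17 (both ybx1 targets and btg4), with 6 of 10 above 0. The 95% confidence intervals of the 10 reached from -0.43 to 0.58, so that a change of up to 1.5-fold upward or 1.35-fold downward lay within the interval of at least 1 member. At 30 ppb the members ran from -0.12 (btg4, SE 0.147) to 0.23 (ybx1 NM_131620, SE 0.189), with 7 of 10 above 0 and intervals from -0.44 to 0.63. Below 0 were 4 of 10 members at 3 ppb and 3 of 10 at 30 ppb, beside 42.1% and 36.5% of all targets. These counts thus cannot be read as particular to the members. The adjusted limma p was 1.00 for every member in both comparisons, and the lowest unadjusted p was 0.261 (btg4, 3 ppb) and 0.255 (ybx1 NM_131620, 30 ppb). Median differences over the members were 0.03 and 0.04, beside 0.06 and 0.09 over all targets.

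Pair by pair, most members of a slide lay on the same side of their control. At 3 ppb the median over the 10 targets was 0.04, 0.27, -0.25, -0.11 and 0.32 in replicates 2 to 6, beside -0.03, 0.11, 0.05, -0.11 and 0.25 over all targets. All 10 were higher in replicate 6, 9 were higher in replicate 3, and 7 and 8 were lower in replicates 4 and 5. Replicate 6 at 3 ppb was the array with a poor grid and few probes well above background. At 30 ppb the members' medians were 0.20, 0.31, 0.07, -0.12 and -0.18, and those of all targets had the same signs at 0.15, 0.26, 0.08, -0.03 and -0.0044. Here 9, 9 and 8 of the 10 were higher in replicates 2, 3 and 4, and 6 and 10 of them lower in replicates 5 and 6. Slides 3 and 4 were scanned in 1 session and slides 5 and 6 in another, each with arrays of all 4 groups. Within these sessions the members' medians had the same sign at 30 ppb and opposite signs at 3 ppb (0.27 and -0.25, then -0.11 and 0.32), and the part of the session was not tested.

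**Figure D4:**
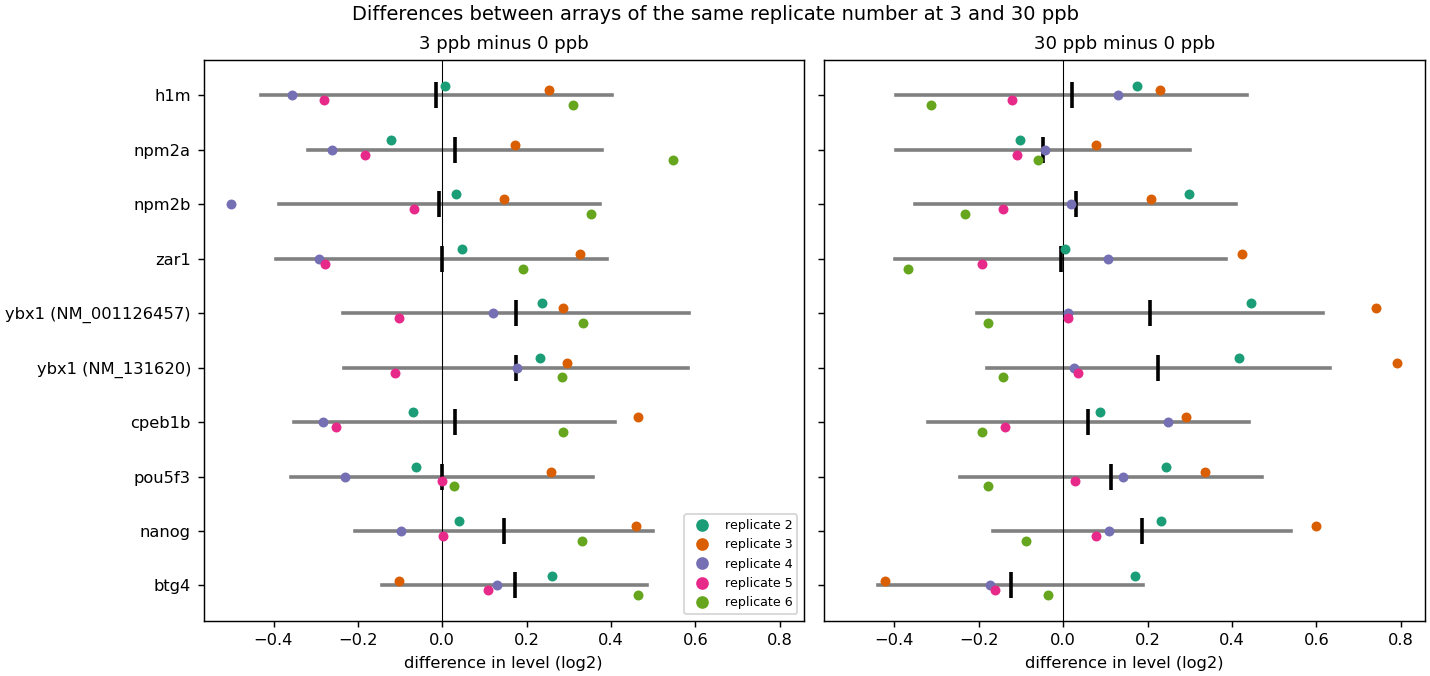
Difference in log2 level from the 0 ppb array of the same replicate number (x axis) for each of the 10 targets (y axis) at 3 ppb and at 30 ppb, 1 point per pair, with the limma log2 fold change as a black tick and its 95% confidence interval as a grey line. The points of each target fall on both sides of 0, from -0.50 to 0.55 in the 3 ppb panel and from -0.42 to 0.79 in the other.

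Taking members by role, h1m, npm2b and zar1 had 3 pairs higher and 2 lower at each dose. The largest differences of this kind were -0.50 for npm2b in 3 ppb replicate 4 and 0.42 for zar1 in 30 ppb replicate 3. npm2a was lower in 4 of 5 pairs at 30 ppb, where 13.7% of all targets were lower in at least 4 pairs. ybx1 was higher in 4 of 5 pairs at both doses for both targets, which belong to 1 gene, and nanog likewise. Of all targets, 23.8% were higher in at least 4 pairs at 3 ppb and 28.1% at 30 ppb. At 30 ppb the ybx1 differences were 0.45, 0.74, 0.01, 0.01 and -0.18 for NM_001126457, so replicates 2 and 3 carried the mean. In replicate 4, 13 ybx1 probes of the 2 targets differed by 0.09 to 0.33 and 11 by -0.39 to -0.03. That pair thus counts as higher only as a mean over probes that disagreed. nanog differed by 0.23, 0.60, 0.11, 0.08 and -0.09 at 30 ppb and pou5f3 by 0.24, 0.34, 0.14, 0.03 and -0.18, with the same 2 replicates highest. cpeb1b was higher in 2 of 5 pairs at 3 ppb and in 3 at 30 ppb.

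btg4 was the member whose 2 higher doses lay furthest apart. It was higher than its control in 4 of 5 pairs at 3 ppb (0.26, -0.10, 0.13, 0.11 and 0.46) and lower in 4 of 5 at 30 ppb (0.17, -0.42, -0.17, -0.16 and -0.04). Between 30 and 3 ppb the fitted log2 fold change was -0.30 (95% confidence interval -0.61 to 0.02). It did not meet the threshold, with an unadjusted limma p of 0.0631 and an adjusted p of 1.00, and neither did any of the 69978 targets (0%), of which 639 (0.913%) had an unadjusted p under 0.05 with this fold. The other 9 targets ran from -0.08 to 0.12 in this comparison. The single btg4 probe gives no check by a second probe.

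The spread within groups was compared next. The SD over 5 arrays was 0.04 to 0.20 at 0 ppb, 0.13 (btg4) to 0.35 (cpeb1b) at 3 ppb and 0.04 (npm2a) to 0.38 (ybx1) at 30 ppb. At 3 ppb the SD was larger than at 0 ppb for 9 of the 10 targets, beside 60% of 62715 targets, and at 30 ppb for 8 of the 10, beside 51.8%. btg4 was the exception at 3 ppb, and btg4 with npm2a at 30 ppb. The SDs at 3 and 30 ppb include 3 ppb replicate 6 and 30 ppb replicate 2, which were marked for a poor grid. The members share their arrays, so the 10 counts are not independent. Neither the spread nor the part of those 2 arrays in it was tested.

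Levels of the members went up and down together over the 15 arrays of the 0, 3 and 30 ppb groups. All 45 correlations between pairs of targets were positive, from 0.08 to 0.99 with a median of 0.62 (Pearson, n = 15 arrays). Against the mean of the 9 others, the correlation was 0.889 for zar1, 0.849 for cpeb1b, 0.831 for nanog, 0.795 and 0.767 for the ybx1 targets, 0.771 for h1m, 0.762 for pou5f3, 0.702 for npm2b, 0.622 for npm2a and 0.215 for btg4. These points share slides and the scaling of each array, and the ybx1 targets are the same gene. Correlations among other targets were not set beside these, so the values cannot be read as particular to the members. Among 9616 other RefSeq targets with 1 gene symbol and a signal well above background on all 15 arrays, those closest to the members' mean level were zgc:162944 (r = 0.952), zpcx (0.951), rpl13a (0.948), qdprb.3 (0.945) and zp3a.2 (0.942). zpcx and zp3a.2 encode egg envelope proteins made in the fish oocyte, and rpl13a a protein of the large ribosomal subunit.

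**Figure D5:**
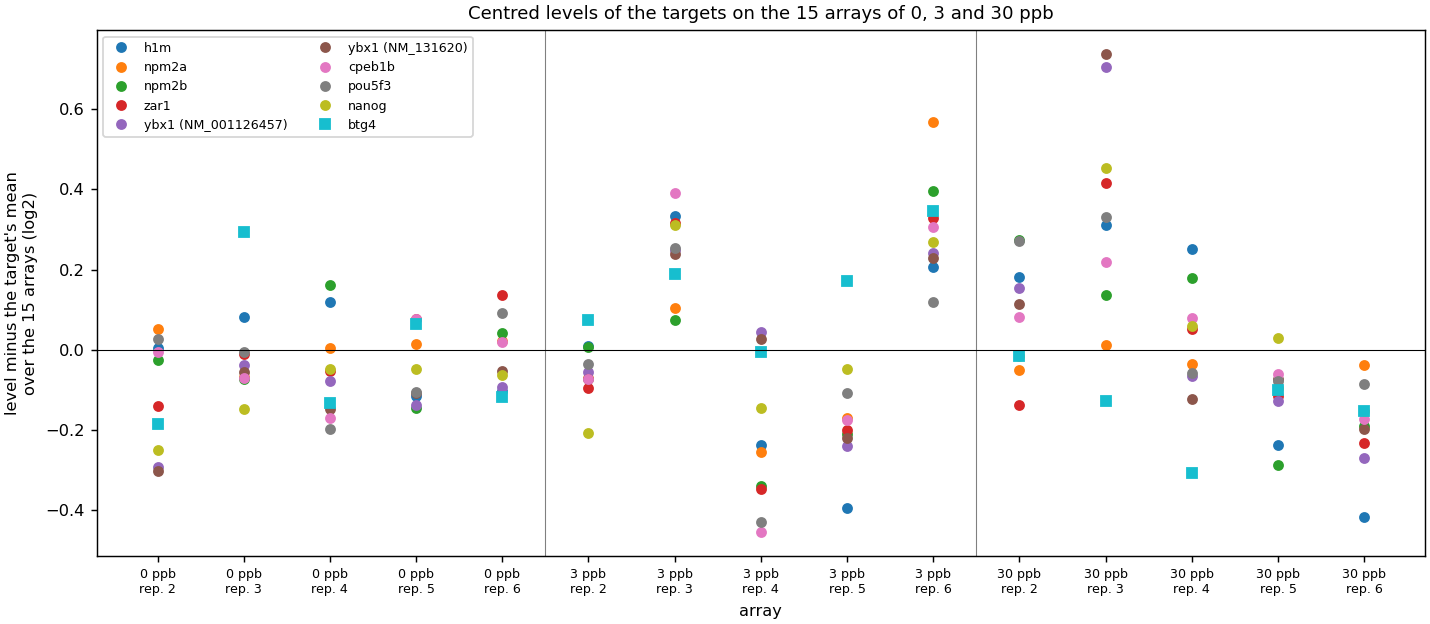
Log2 level of each of the 10 targets minus its own mean over the 15 arrays (y axis) on each array of the 0, 3 and 30 ppb groups (x axis), 1 point per target, with btg4 drawn as squares. All 10 targets lie above 0 on replicates 3 and 6 at 3 ppb and below 0 on replicate 6 at 30 ppb, and on replicate 3 at 30 ppb btg4 is the 1 target below 0.

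Other genes of the same processes gave no call either. Of the other maternal chromatin genes (histone variants, HMG proteins, chaperones and remodellers) 26 of 33 had a target and were tested, of the other mRNA storage and decay genes 42 of 52, and of the other genome activation genes 26 of 30, with 25 tested at 3 and 30 ppb. No target of the 3 lists met the limma threshold at 3 or 30 ppb in either direction, as none of the 69978 targets did. At an unadjusted limma p under 0.05 with the same fold, 1 chromatin target was higher at 30 ppb and none of the lists had any at 3 ppb. Of all targets, 1.26% met this at 30 ppb and 1.81% at 3 ppb, so counts this low cannot be read as particular to the lists. Median log2 fold changes at 3 ppb were 0.04, 0.01 and 0.04 in the order of the lists, beside 0.06 over all targets. At 30 ppb they were 0.06, 0.07 and 0.08, beside 0.09.

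By the rule for naming genes, the chromatin list gave npm1b, a nucleophosmin histone chaperone, and dnmt1, the maintenance DNA methyltransferase. npm1b differed from its control by 2.66, 4.34, -0.30, 2.51 and 2.38 at 30 ppb (log2 fold change 2.32, SE 0.876, adjusted limma p 1.00). Its differences at 3 ppb were -0.15, 0.23, -3.11, 2.28 and 4.19, with a mean of 0.69. It was the chromatin target higher at an unadjusted p, and was named for the size of these differences. At 30 ppb 4 of its 5 pairs were above 0, where 28.1% of all targets were higher in at least 4 pairs. dnmt1 gave 0.74 at 3 ppb and -1.06 at 30 ppb, with pairs on both sides of 0 at each dose. From the storage and decay list, btg1, an antiproliferative relative of btg4, was higher in 5 of 5 pairs at 3 ppb (1.07, 0.06, 0.33, 0.78 and 0.24), a count that 5.55% of all targets reached. pan3, a subunit of the PAN2-PAN3 deadenylase, gave -0.33 at 3 ppb and -0.43 at 30 ppb. Of the genome activation list, nfya, a subunit of the CCAAT-binding factor NF-Y, was higher in 5 of 5 pairs at 30 ppb (0.13, 0.27, 0.50, 0.17 and 0.41), as were 7.06% of all targets. sox2 (0.28 at 3 ppb and 0.43 at 30 ppb) and pou2f1b (-0.28 at 3 ppb) complete the named genes, and neither met the threshold.

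On the 0.3 ppb arrays of replicates 3, 5 and 6 members of these lists were lower in part. Beside 8 of the 10 members, 3 of 26 chromatin targets, 6 of 42 storage and decay targets and 1 of 24 genome activation targets were lower by at least 5 log2 units in all 3 pairs. The share over 61964 targets was 1.84%. By at least 1.5-fold in all 3 pairs, 20, 30 and 11 targets of the lists were lower and 4, 5 and 5 higher, beside 22.2% lower and 36.5% higher of all targets. Chosen after the values were seen, zar1l, a paralogue of zar1, differed by -8.71, -10.97 and -12.19, and the oocyte poly(A)-binding protein pabpc1l by -8.90, -9.87 and -10.25. The oocyte-type cap-binding protein eif4e1b differed by -9.33, -8.59 and -9.23, and the germ cell TBP paralogue tbpl2 by -8.53, -8.45 and -8.64. On the higher side sox2, a neural and pluripotency transcription factor, differed by 7.49, 6.05 and 7.26 and hmgb3a, an HMG-box chromatin protein, by 5.98, 4.81 and 6.97. No target of the lists met the limma threshold at 0.3 ppb, which 2 of 63569 targets met.

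Markers of other cell types gave no call at 3 or 30 ppb, but some lists lay on 1 side of 0. On 3 ppb replicate 6, only 4 of 6 blood, 5 of 8 follicle somatic, 2 of 6 liver and 12 of 20 brain markers were well above background. At 3 ppb all 6 blood markers had a log2 fold change above 0, with a median of 0.90. Of these, 3 had an unadjusted limma p under 0.05, counted without a cut on fold. With the cut of 1.5-fold, 1.81% of all targets had such a p at 3 ppb in either direction. The mean level of the blood markers was -0.12 to 2.07 at 3 ppb against -0.57 to 0.36 at 0 ppb. All 8 follicle somatic markers were above 0 at 3 ppb (median 0.43, 2 at an unadjusted p), with mean levels of 0.14 to 0.95 against -0.25 to 0.13. At 30 ppb the median was 0.07 for the blood markers, with 3 of 6 above 0, and 0.29 for the follicle somatic markers, with 6 of 8 above 0. All 6 liver markers were below 0 at both doses (medians -2.12 and -1.42), with mean levels of -3.30 to 2.84 at 0 ppb, -5.98 to 3.42 at 3 ppb and -5.49 to 2.99 at 30 ppb. Of 19 brain markers, 10 were above 0 at 3 ppb (median 0.07) and 16 at 30 ppb (median 0.26). The 15 oocyte markers had medians of -0.01 at 3 ppb and 0.12 at 30 ppb and mean levels of -0.18 to 0.27 and of -0.15 to 0.47. Their part in the members' values was not tested.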

How the data were processed

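Total RNA was labelled with Cy3 and hybridized to Agilent 1-colour arrays, and the authors extracted the images with Agilent Feature Extraction 11.5. The deposited intensity is that software's background-corrected, processed signal, and the deposited median and background intensities served an alternative. Other deposited marks (well above background, outlier, saturated) were used as given.

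Processed intensity was floored at 1, put on the log2 scale and reduced by the array's 75th percentile. Outlier spots were left out, spots were averaged by probe and probes by target; a target's mean was corrected for probes left out on an array, a choice made after the data were seen. Gene names were matched by RefSeq accession, giving 13710 targets with 1 symbol. Probes well above background on at least 5 arrays of a fit were kept, and targets needed 2 values per group. limma 3.58.1 (R 4.3.3) was fitted to 0, 3 and 30 ppb (15 arrays, 69978 targets) and to 0.3 and 0 ppb (10 arrays, 63569 targets), with Benjamini-Hochberg adjustment over all targets. A call needed an adjusted p under 0.05 and a change of at least 1.5-fold, the size the study's methods set beside an analysis of variance. The fits were tested on simulated data with 200 changed targets, drawn at random from all targets, each with its own spread. At 3 ppb the threshold recovered 11.5% of changes of 1 log2 unit, 44% of 2 and 86.5% of 4. At 0.3 ppb it recovered 0%, 0% and 50%. The simulated noise was normal and equal in both groups, whereas the 0.3 ppb arrays of replicates 3, 5 and 6 stood apart from the others. These shares are over all targets and not over the members, whose SE at 3 ppb was 0.147 to 0.194. An unmet threshold does not show that a target was unchanged.

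Replicate 1 was left out: its signals matched other arrays (r 0.464 to 0.718) only after moving the grid by 1 column and up to 2 rows. The study's methods define biological replicates as groups started on different days. They do not say that the replicate number of an array label is such a group. Each number is a slide of its own, so pairs by number share a slide. Deviations of same-numbered arrays correlated at a median of 0.445 over 15 pairs, 14 of them over 0.1. For different numbers the median was -0.316 over 60 pairs, 23 of them over 0.1. The replicate block was an alternative. No 2 arrays held the same values. Array numbers limit the precision.

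The members and lists were chosen with earlier results of these data known. Named genes of the other lists were the called targets or, with none called, those 2 of the largest absolute mean paired difference at 3 and at 30 ppb. Cell type marker lists covered oocyte, follicle somatic, brain, liver, blood, muscle and testis. Relative to the median 0 ppb array, the 7 muscle and 6 testis targets had mean levels of 0.42 to 2.20 and 1.40 to 2.07 on 0.3 ppb replicates 3, 5 and 6. Muscle means reached 0.81 at 0 ppb, 0.78 at 3 ppb and 0.92 at 30 ppb, so those ranges overlapped. Testis means reached 1.29, 0.95 and 1.11 in the same order. High values of these 2 lists were thus not confined to the 3 arrays.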

Additional observations from a re-analysis of the deposited data

How the results depend on the processing

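Of the 693 values of single members under an alternative setting, 592 kept their direction and their side of the threshold, none of those at 3 or 30 ppb met the threshold, and 93 changed sign. Counts of changed targets, 0 in each comparison of the 0, 3 and 30 ppb groups, became 1 at 3 ppb with no filter on dim probes, and 1 each at 3 and 30 ppb with a strict filter. With the arrays of a poor grid left out the count was 1 at 30 ppb and 1 between 30 and 3 ppb. Leaving out 1 replicate gave 0 to 4 at 3 ppb and at 30 ppb (4 without replicate 6 in both, 2 without replicate 2 at 30 ppb) and 0 to 1 between 30 and 3 ppb (1 without replicate 2). The methods' analysis of variance without adjustment gave 404 at 3 ppb, 282 at 30 ppb and 161 between them, and an unadjusted limma p gave 1266, 883 and 639. At 0.3 ppb the count of 2 became 1 with no filter on dim probes or the median over probes, and 0 with replicate 1, with all 24 arrays or with the replicate block. With array weights it became 50947 of 63569, so most targets of the array met the threshold, and the 8 lost members were among them. It was 8645 by the methods' analysis of variance, 13337 at an unadjusted limma p, and 0 to 78 on leaving out 1 replicate (78 without replicate 4, 12 without replicate 2, 0 without replicate 3, 5 or 6). Leaving out the 0.3 ppb arrays of replicates 3, 5 and 6 gave 5 and, as alternatives chosen after the data were seen along with leaving out arrays of a poor grid and the plain mean over probes, 0 in a fit of all 4 groups or with the replicate block. The replicate block changed no other call, and its adjusted limma p was 0.777 to 0.998 for the members at 3 ppb, 0.935 to 0.999 at 30 ppb and 0.185 for the 8 lost targets at 0.3 ppb. Quantile normalization moved the median of all targets at 0.3 ppb from 0.23 to -0.03 and normexp moved it to 0.46, with the members' median at -5.65 and -3.98.

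Members near 0 changed sign as follows, on the log2 scale. At 3 ppb, adding replicate 1 or all 24 arrays gave 0.27 for h1m and -0.0928 for btg4. Quantile normalization gave -0.0161 for npm2a and -0.0344 for cpeb1b, array weights -0.0496 and -0.007, leaving out arrays of a poor grid -0.10 and -0.0477, and normexp -0.0231 for cpeb1b. 1 probe alone gave 0.0033 for h1m, 0.0554 for zar1, -0.0731 for cpeb1b, 0.021 for pou5f3 and -0.0126 for nanog. Leaving out 1 replicate gave -0.0946 to 0.0718 for h1m, -0.0981 to 0.10 for npm2a, -0.0975 to 0.12 for npm2b, -0.0834 to 0.0713 for zar1, -0.0793 to 0.11 for cpeb1b and -0.0664 to 0.0558 for pou5f3. At 30 ppb, adding replicate 1 or all 24 arrays gave -0.43 for npm2b, -0.59 for pou5f3 and 0.29 for btg4, and 0.38 for btg4 between 30 and 3 ppb. Quantile normalization gave -0.0654 for h1m, -0.0082 for npm2b and -0.0066 for cpeb1b, array weights -0.0575 for h1m and 0.014 for zar1, and leaving out arrays of a poor grid -0.0207 for h1m, -0.0327 for npm2b and 0.0279 for zar1. The median or the plain mean over probes gave 0.15 for zar1, and the median -0.16 for nanog. 1 probe alone gave -0.046 for h1m, 0.0379 for zar1 and -0.11 for ybx1 NM_131620. Leaving out 1 replicate gave -0.0323 to 0.10 for h1m, -0.0371 to 0.0959 for npm2b and -0.11 to 0.089 for zar1. Replicate 1 was the slide with the misplaced grid, which the main fits left out. The cause of these changes of sign was not tested.

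At 0.3 ppb, leaving out the arrays of replicates 3, 5 and 6 gave 0.22 for h1m, 0.008 for npm2a, 0.33 for npm2b, 0.14 for zar1, 0.24 for cpeb1b, 0.26 for pou5f3 and 0.14 for nanog, also in the fit of all 4 groups. With the replicate block these were 0.15 for h1m, 0.25 for npm2b, 0.24 for zar1, 0.30 for cpeb1b, 0.31 for pou5f3 and 0.17 for nanog. For ybx1, array weights gave -0.0691 for NM_001126457 and -0.0651 for NM_131620, and leaving out 1 replicate gave -0.0076 (without replicate 3) to 0.19 for NM_131620. The lower probes alone gave -0.48, -0.58, -0.58, -0.41, -0.50 and -0.65 for NM_001126457 and -0.60, -0.48, -0.34, -0.57, -0.67, -0.63 and -0.52 for NM_131620. Signal over background limits nanog on all 3 low arrays, npm2a and pou5f3 on 2 of them, and npm2b, cpeb1b and btg4 on 1, where some or all of their probes were not well above background.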
